A study of Homo sapiens with 9 samples.

Results

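Transcripts of 10 desmosome components were followed through knockdown of MPZL3 in OVCA433 cells, an established human ovarian serous adenocarcinoma line. The components were the desmocollins DSC2 and DSC3, the desmogleins DSG2 and DSG3, plakoglobin (JUP), the plakophilins PKP1, PKP2 and PKP3, desmoplakin (DSP) and the tetraspan protein PERP. They were taken by symbol from a count table of 58676 genes, and each matched 1 row. The table held 9 libraries, 3 for each of 3 lentivirally transduced populations: control vector, shRNA #1 against MPZL3 and shRNA #3 against MPZL3. Libraries of a population were marked A, B and C, and the study describes 3 biological replicates per condition. The labels give the control as wild type and the other populations as MPZL3 knock-down, and all were grown in RPMI medium with fetal bovine serum. Each population was a puromycin-selected pool from a single line. Whether the control virus carried a hairpin is not settled here, since the study speaks both of an empty vector and of a scrambled sequence for these cells. Both knockdown populations were compared with the same 3 control libraries.

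Desmosomes are intercellular junctions that tie the keratin filaments of neighbouring epithelial cells together. Desmogleins and desmocollins are the transmembrane cadherins that bind across the gap between cells, plakoglobin and the plakophilins are armadillo-repeat proteins that bind the cadherin tails, and desmoplakin links this plaque to keratin. PERP is a p53 and p63 target that is needed for desmosome assembly in stratified epithelia. Simple epithelia, the type that most ovarian carcinomas resemble, mainly use DSG2, DSC2 and PKP2, while DSG3, DSC3 and PKP1 belong mostly to stratified epithelia.

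Of the 10 components, 7 had enough counts to be tested among 15975 genes, and all 7 were lower in each of the 6 knockdown libraries than in each control library, a separation that 17.6% of all tested genes showed. JUP, PKP2 and PKP3, which encode armadillo-repeat plaque proteins, fell past a 2-fold threshold with either hairpin. Transcripts of the cadherins DSC2 and DSG2, of DSP and of PERP were lower by less, and PERP passed the fold threshold with hairpin #3 alone. DSG3 had no count in any library, and DSC3 and PKP1 stayed at 4 counts or fewer.

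Levels are given as CPM, library-size-scaled counts that use TMM factors, from libraries of 16850854 to 23890191 counts. Calls required a Benjamini-Hochberg adjusted p-value below 0.05 in edgeR's quasi-likelihood test and a change of 1 or more, up or down, on the log2 scale. MPZL3 itself was at 15.6, 21.9 and 21.0 CPM in control, at 1.87, 1.98 and 1.80 CPM with hairpin #1 and at 1.94, 0.987 and 1.79 CPM with hairpin #3. Its log2 fold change over both hairpins was -3.49 (SE 0.191, edgeR adjusted p = 6.87e-08). No replicate libraries of a group were alike within counting noise (chi-square per degree of freedom of 6.80 to 42.0), and mitochondrial transcripts took 2.75% to 4.01% of the counts. Of 7 ovarian serous markers, 5 were tested, 2 fell, 1 rose and 2 were not called (median log2 fold change 0.78). WT1 had no count in any library, EPCAM went from 402 CPM in control to 5.47 and 8.92 CPM, and PAX8 from 96.9 CPM to 200 and 207 CPM with hairpins #1 and #3. The markers not called, SOX17 and MSLN, had log2 fold changes of 0.96 and 0.78 (edgeR adjusted p = 0.00106 and 0.0489), and MSLN was called higher with hairpin #3 alone (1.12). MUC16, which encodes the antigen CA125, was at 3.18 CPM in control and had no count in the 6 knockdown libraries, at least 21.2-fold lower when 3 counts per library are taken as the floor. The libraries were bulk RNA, in which fewer expressing cells and less RNA per cell cannot be told apart.

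Upstream sequences are shown because repressors that bind E-boxes were among the genes read beside the components, described further on. RefSeq start-site windows on GRCh38.p14, from 250 bases before to 50 after the start, were matched for 8 of the 10 components and gave 10 windows of 300 bases. PKP2 and PKP3 were not matched. The letters CACCTG, an E-box recognised by SNAI and ZEB proteins, were sought on both strands, where the other strand reads CAGGTG. They occurred in windows of 4 of the 8 matched components, DSC2, DSG2, DSP and JUP, and in 4 of their 10 windows. Across all 35116 RefSeq windows, 20.6% held this E-box and 3.49% held it at 2 or more positions. DSG2, DSP and the second start of JUP had 2 each. Stretches upstream of the annotated transcripts are printed 5′ to 3′ on the strand of the gene, with E-boxes in capitals. DSP, DSG2 and DSC2 are shown as detected components with an E-box upstream, PERP as a detected one without, and DSG3 as the one with no counts.
DSP chr6:7541421-7541574 (plus strand): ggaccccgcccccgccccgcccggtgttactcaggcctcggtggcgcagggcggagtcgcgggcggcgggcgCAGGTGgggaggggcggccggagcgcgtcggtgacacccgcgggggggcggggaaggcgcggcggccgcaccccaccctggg
DSG2 chr18:31497927-31498042 (plus strand): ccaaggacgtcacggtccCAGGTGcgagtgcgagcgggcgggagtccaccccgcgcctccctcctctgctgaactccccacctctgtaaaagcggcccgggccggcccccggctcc
DSC2 chr18:31102523-31102671 (minus strand): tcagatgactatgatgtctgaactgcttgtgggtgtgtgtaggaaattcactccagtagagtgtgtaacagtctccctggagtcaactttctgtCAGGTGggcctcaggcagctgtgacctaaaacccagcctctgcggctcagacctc
PERP chr6:138107512-138107669 (minus strand): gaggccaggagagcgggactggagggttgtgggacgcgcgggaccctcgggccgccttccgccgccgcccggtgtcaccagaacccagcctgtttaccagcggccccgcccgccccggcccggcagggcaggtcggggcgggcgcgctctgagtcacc
DSG3 chr18:31447491-31447740 (plus strand): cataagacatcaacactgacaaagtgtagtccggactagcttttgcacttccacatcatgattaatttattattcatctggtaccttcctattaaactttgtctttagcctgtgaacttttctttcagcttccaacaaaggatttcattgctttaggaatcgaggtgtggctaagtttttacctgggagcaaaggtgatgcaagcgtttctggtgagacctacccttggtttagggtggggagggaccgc
The JUP window held its E-boxes 54 and 43 bases before the second annotated start, on opposite strands and not overlapping, which places them within the JUP gene as the count table bounds it. The other E-boxes of DSP and DSG2, 85 and 116 bases before the RefSeq start, lay inside the gene bounds of the count table too. These 3 places are shown as 30-base windows.
JUP chr17:41786008-41786037 (minus strand): ctggcccCACCTGccgagCAGGTGagcgca
DSP chr6:7541574-7541603 (plus strand): gaagaaaccggcCAGGTGtggcctaggcgc
DSG2 chr18:31498049-31498078 (plus strand): tcgcggcggccaCACCTGgagccgcgcctt
CpG dinucleotides numbered 43 in the window of PERP, 37 in that of DSP, 36 in that of DSG2, 23 and 19 in those of JUP and 15 and 22 in those of DSC2. Among the components at or near 0 counts they numbered 25 for DSC3, 19 for PKP1 and 6 for DSG3, so the counts of detected and undetected components overlapped. The AP-1 letters TGANTCA were found in PERP alone, as TGAGTCA 101 bases before the start, and in 7.71% of all windows. The grainyhead letters AACCNGTT were found in no matched component and in 1.73% of all windows. These are matches of letters and were not tested as binding sites.

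Of the desmosomal cadherins, DSG2 (18:31498043-31549008 on hg38, plus strand) was the abundant one. It was at 269, 233 and 223 CPM in control, 185, 175 and 148 CPM with hairpin #1 and 145, 120 and 111 CPM with hairpin #3. The 3 groups did not overlap, with hairpin #3 lowest. The log2 fold change of DSG2 over both hairpins was -0.72 (SE 0.151, edgeR adjusted p = 0.00315), which is 1.64-fold lower and under the fold threshold. DSC2 (18:31058840-31102415, minus strand), its partner cadherin, was at 37.1, 30.4 and 34.9 CPM in control. It was at 25.6, 29.6 and 25.8 CPM with hairpin #1 and at 21.0, 15.2 and 15.6 CPM with hairpin #3. The highest hairpin #1 library was close below the lowest control library, while all hairpin #3 libraries were lower than both other groups. Over both hairpins the log2 fold change of DSC2 was -0.62 (SE 0.198, edgeR adjusted p = 0.0303). For hairpin #1 alone it was -0.34 (SE 0.135), which missed the threshold (edgeR adjusted p = 0.0663), with a 95% interval of -0.63 to -0.04. The pooled adjusted p-value of DSC2 was 0.106, 0.0524 and 0.0903 without control library A, B or C, so its place under 0.05 rested on each control library. In hairpin #3 cells the log2 fold changes were -0.98 for DSC2 and -0.95 for DSG2, just short of the fold threshold. Without hairpin #3 library A they were -1.15 and -1.07 and past it.

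**Figure D1:**
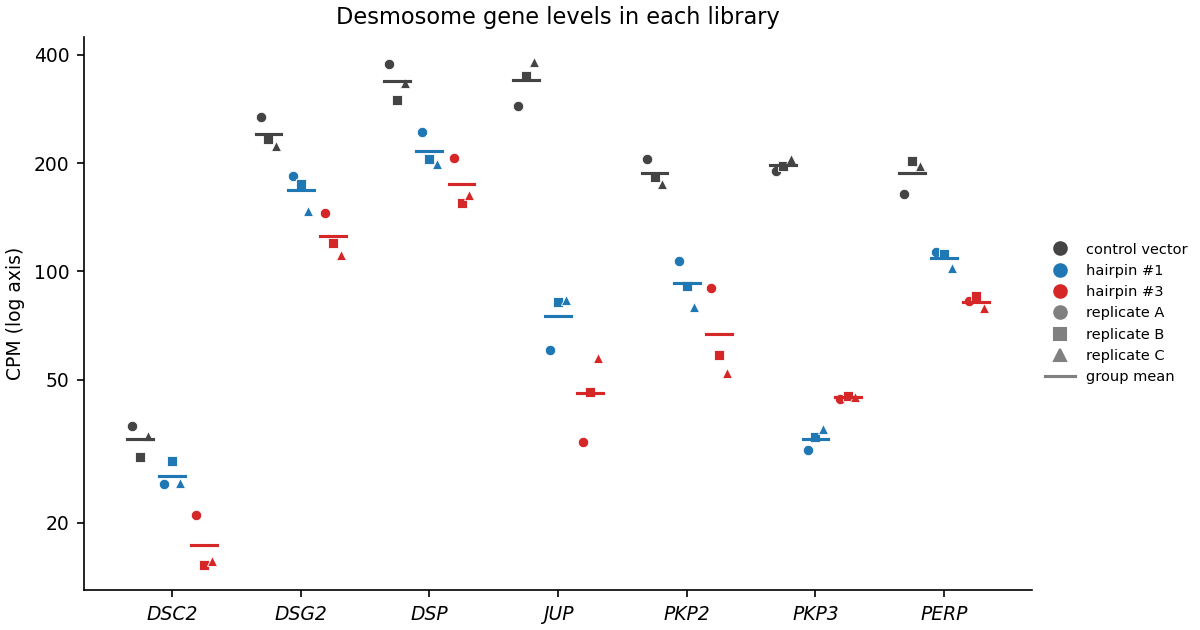
CPM on a log axis of the 7 tested desmosome genes in each library, with the libraries A, B and C of each group as separate symbols and the group mean as a bar. For all 7 genes the 6 knockdown libraries lie below the 3 control libraries, and the gap is widest for JUP and PKP3.

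The cadherins of stratified epithelia were at or near 0. DSG3 (18:31447795-31478702), the antigen of pemphigus vulgaris, had 0 counts in all 9 libraries. DSC3 (18:30990008-31042815) had no count in control, 1, 2 and 0 counts with hairpin #1 and 4, 3 and 3 counts with hairpin #3. The hairpin #3 libraries held the most DSC3 reads, 10 in all, and the gene did not pass the filter on low counts. The other family members, fixed as desmosomal relatives, were as low: DSG4 had 0 counts throughout, and DSG1 and DSC1 had at most 2 and 3 counts in any library. Changes of these genes were not detectable at this depth.

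The 4 cadherin components lie, with DSC1, DSG1 and DSG4, in a cluster of 559 kb on chromosome 18 (18:30990008-31549008). Within 500 kb on either side the table lists 37 genes, 6 of them tested and 19 without a single count. Besides DSC2 and DSG2, the tested protein-coding genes were B4GALT6, which encodes a lactosylceramide synthase, and TRAPPC8, a subunit of a vesicle-tethering complex. B4GALT6 was at 17.7, 13.5 and 14.8 CPM in control, 31.4, 27.0 and 21.9 CPM with hairpin #1 and 31.2, 28.5 and 27.96 CPM with hairpin #3. All 6 knockdown libraries were above control for this gene, the tested one nearest to DSG2, by 0.87 on the log2 scale (SE 0.136, edgeR adjusted p = 0.000382) and under the fold threshold. TRAPPC8 had a log2 fold change of 0.00 (95% interval -0.27 to 0.27, edgeR adjusted p = 0.994). The antisense genes RP11-549B18.1 and RP11-326K13.4 stayed under 2 CPM, with log2 fold changes of 0.10 and 1.60 and edgeR adjusted p-values of 0.878 and 0.0573. A wider set held 50 tested genes at 10 CPM or more, 25 on each side, over 18:12658043-47931146. Their median log2 fold change was 0.00, so DSC2 stood 0.62 and DSG2 0.72 below the median of this wide stretch.

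**Figure D2:**
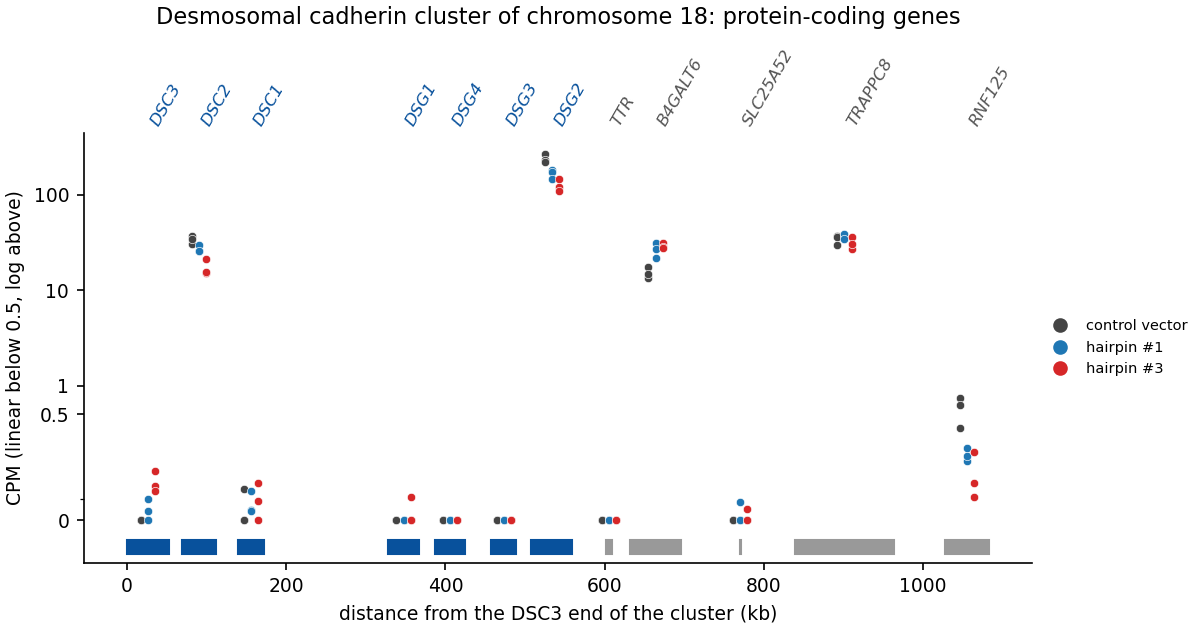
CPM in each library (linear below 0.5, log above) of the protein-coding genes in and around the desmosomal cadherin cluster of chromosome 18, placed by distance in kb from its DSC3 end, with gene extents as blocks under the axis and cluster genes in blue. DSC2 and DSG2 sit lower in knockdown than in control, B4GALT6 sits higher, and the other cluster genes are at or near 0.

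JUP (17:41754604-41786931, minus strand) encodes plakoglobin, the armadillo protein that desmosomes share with adherens junctions. It was at 289, 350 and 383 CPM in control, 60.4, 82.0 and 83.0 CPM with hairpin #1 and 33.6, 46.2 and 57.5 CPM with hairpin #3. No group overlapped another, and the means with the hairpins were 22.1% and 13.4% of control. JUP fell by 2.49 on the log2 scale over both hairpins (SE 0.231, edgeR adjusted p = 5.96e-06), the largest change of the 7 in that comparison. Its fold was 4.53-fold lower with hairpin #1 and 7.43-fold lower with hairpin #3.

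PKP3 (11:392614-404908, plus strand), the plakophilin with the widest range of epithelia, was at 190, 197 and 206 CPM in control. With hairpin #1 it was at 31.8, 34.7 and 36.3 CPM and with hairpin #3 at 44.0, 45.1 and 44.7 CPM. Every hairpin #3 library was above every hairpin #1 library, and both groups were far below control. PKP3 fell by 2.32 on the log2 scale (SE 0.116, edgeR adjusted p = 2.83e-08). PKP2 (12:32790745-32896840, minus strand), the plakophilin of simple epithelia and heart, was at 205, 184 and 175 CPM in control, 107, 90.8 and 79.8 CPM with hairpin #1 and 90.2, 58.5 and 52.3 CPM with hairpin #3. The hairpin groups overlapped each other but not control. PKP2 fell by 1.23 on the log2 scale (SE 0.189, edgeR adjusted p = 0.000333). With hairpin #1 the log2 fold change of PKP2 was -1.02, and it was -0.95 without control library A and -0.93 without hairpin #1 library C, short of the fold threshold in both fits. PKP1 (1:201283452-201332993), the plakophilin of stratified epithelia, had 3 counts in 1 hairpin #1 library and none in the other 8.

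DSP (6:7541575-7586717, plus strand) encodes desmoplakin, the plakin that anchors keratin. It was at 378, 301 and 335 CPM in control, 244, 206 and 199 CPM with hairpin #1 and 207, 155 and 163 CPM with hairpin #3. Both hairpin groups were below control, and hairpin #3 library A was within the range of hairpin #1. The log2 fold change of DSP was -0.79 (SE 0.136, edgeR adjusted p = 0.00082), or 1.73-fold lower, under the fold threshold. In hairpin #3 cells it was -0.95 (SE 0.132), and it passed the threshold at -1.09 without hairpin #3 library A and at -1.03 without control library B.

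PERP (6:138088505-138107511, minus strand) was at 165, 203 and 196 CPM in control, 113, 112 and 102 CPM with hairpin #1 and 82.5, 85.2 and 79.2 CPM with hairpin #3. The 3 groups were separate, with hairpin #3 lowest. Over both hairpins the log2 fold change of PERP was -0.97 (SE 0.130, edgeR adjusted p = 0.000118), which is 1.96-fold lower. PERP passed the fold threshold without control library A (-1.06), hairpin #1 library A (-1.03) or hairpin #1 library B (-1.03), so its call rested on where a 2-fold change is set. With hairpin #3 PERP fell by 1.19 (SE 0.101, edgeR adjusted p = 8.16e-07).

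**Figure D3:**
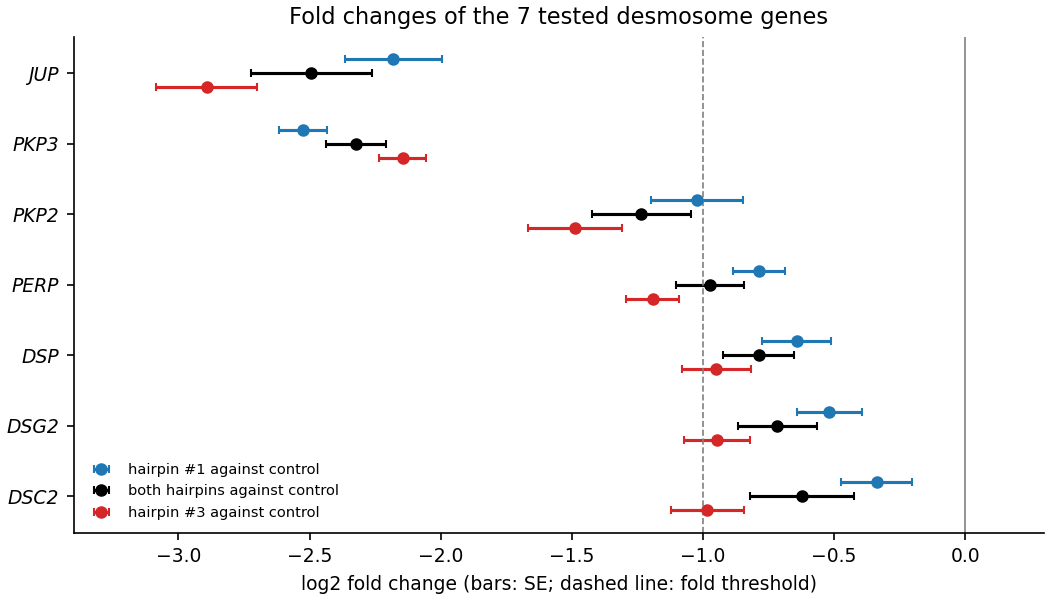
Log2 fold changes of the 7 tested desmosome genes for each hairpin and for both hairpins against control, with the SE as bars and a dashed line at the fold threshold of -1. JUP and PKP3 lie beyond -2 in all 3 comparisons, PKP2 between -1.02 and -1.49, and DSC2, DSG2 and DSP between -0.98 and -0.34.

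Counted over both hairpins, 3 of the 7 tested components were called lower and none higher, where 7.4% of all tested genes were called lower and 7.26% higher. By the adjusted p-value alone all 7 were lower, against 17% of tested genes, and the 6 knockdown libraries lay below the 3 control libraries for all 7 (background 17.6%). The median log2 fold change of the 7 was -0.97, and that of all tested genes was 0.00. With hairpin #1, 3 components were called (background 8.55%) and 6 passed on the adjusted p-value alone (background 19.7%), DSC2 being the exception. With hairpin #3, 4 components were called (background 7.83%) and all 7 passed on the adjusted p-value alone (background 18.1%). The hairpin #3 count was 7 without hairpin #3 library A and 6 without control library B. Medians over the 7 were -0.78 and -1.19 for hairpins #1 and #3. DESeq2's Wald test called 3, 3 and 4 components for both hairpins, hairpin #1 and hairpin #3. Compared within the letters A, B and C, the log2 ratios to control ran from -0.04 at the highest for DSC2 to -3.10 at the lowest for JUP. That all were below 0 follows from the separation of the arms and adds no support. Each component was also set against up to 25 tested genes at 10 CPM or more on each side of it on its chromosome, 50 in all (31 for PKP3). Their median log2 fold changes lay between -0.07 around PKP3 and 0.15 around PKP2.

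The hairpins were then compared with each other in the model with 3 groups. No component was called by edgeR or by DESeq2 with the fold threshold, for which the background of lower calls was 1.72%, while all 7 had an unadjusted p-value under 0.05, as had 25% of all tested genes in either direction. By the adjusted p-value alone 4 components, DSC2, DSG2, JUP and PERP, were lower with hairpin #3 (background 5.3%) and 1, PKP3, was higher (background 6.33%). The same 4 had all hairpin #3 libraries below all hairpin #1 libraries, as had 13.2% of tested genes. The log2 difference between hairpins was -0.65 for DSC2 (SE 0.139, edgeR adjusted p = 0.00851), -0.71 for JUP (SE 0.182, edgeR adjusted p = 0.0219) and 0.38 for PKP3 (SE 0.0892, edgeR adjusted p = 0.0139). PKP3 was thus the component for which the order of the hairpins was turned. DSP and PKP2 missed the threshold, with 95% intervals of -0.59 to -0.02 and -0.85 to -0.09 (edgeR adjusted p = 0.162 and 0.111). In a fit with a replicate block both were under 0.05 (edgeR adjusted p = 0.00447 and 0.0016). MPZL3 itself had a log2 difference of -0.25 between the hairpins (95% interval -0.81 to 0.31, edgeR adjusted p = 0.614). Without hairpin #3 library B the edgeR adjusted p-value was over 0.05 for all 5 components that had passed, at 0.053 for DSC2, 0.156 for DSG2, 0.0805 for JUP, 0.0546 for PERP and 0.0641 for PKP3, with the signs kept. Other libraries that moved single components in this way are listed in the closing section.

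Levels were compared between genes after division by the gene length in the table, as CPM per kb. In control, JUP led at 68.9 ± 9.61 CPM per kb (SD, n = 3), followed by PKP3 at 52.1 ± 2.10, PERP at 43.8 ± 4.81, DSG2 at 39.1 ± 3.86, DSP at 33.5 ± 3.84 and PKP2 at 26.7 ± 2.22. DSC2 was far lower at 2.76 ± 0.273 CPM per kb. Neighbours from PERP to DSP in this order had overlapping libraries, while JUP, PKP3 and PERP did not overlap each other in turn. In knockdown the order changed: DSG2 led at 27.3 ± 3.10 CPM per kb with hairpin #1 and 20.3 ± 2.87 with hairpin #3, and PERP was next at 25.4 ± 1.39 and 19.2 ± 0.70. These 2 overlapped in both hairpin groups. JUP stood at 15.2 ± 2.58 and 9.26 ± 2.42 CPM per kb, and PKP3 at 9.05 ± 0.606 and 11.8 ± 0.145.

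Summed over the 10 genes, the per-length level was 267 ± 7.20 CPM per kb in control (SD, n = 3), 114 ± 5.77 with hairpin #1 and 88.8 ± 6.42 with hairpin #3, which left 42.6% and 33.3% of the control sum. The armadillo genes JUP, PKP1, PKP2 and PKP3 made up 55.3% ± 2.10 of this sum in control, 33.0% ± 2.49 with hairpin #1 and 34.5% ± 1.98 with hairpin #3. Cadherins made up 15.7% ± 1.92, 25.9% ± 1.49 and 24.4% ± 1.77. The share of DSP was 12.6% ± 1.66, 18.8% ± 1.45 and 19.4% ± 1.71, and that of PERP 16.4% ± 1.54, 22.4% ± 0.143 and 21.7% ± 1.63. The mean cadherin, DSP and PERP shares were higher in both knockdown groups although the levels of these genes were lower, since the shares sum to 100%.

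**Figure D4:**
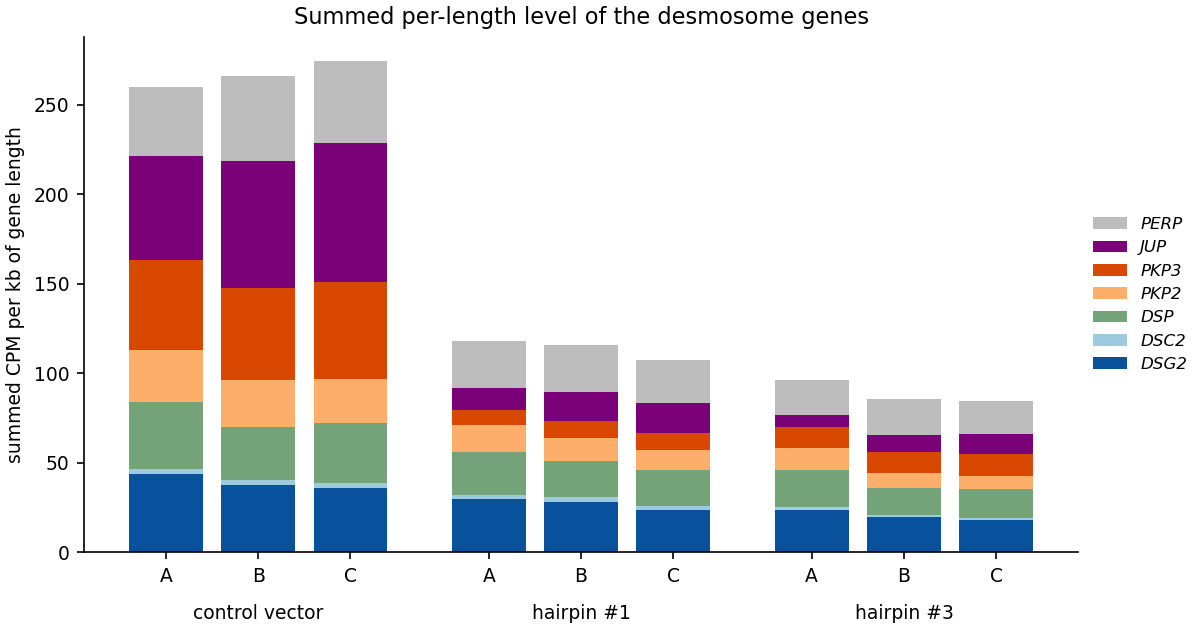
Summed CPM per kb of gene length in each library, stacked by desmosome gene, for control vector, hairpin #1 and hairpin #3. The bars stand at 260 to 274 in control, 107 to 118 with hairpin #1 and 84.7 to 96.2 with hairpin #3, and the JUP and PKP3 blocks shrink most.

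Ratios within a library were tested for pairs of components with an exact permutation test over the 84 splits of 9 libraries, 2-sided, whose smallest p is 0.0119. The test treated the 6 knockdown libraries as interchangeable, although they came from 2 hairpin populations. Its p-values therefore count libraries and not independent hairpins. The log2 ratio of JUP to DSP was 0.01 ± 0.34 in control (SD, n = 3) and -1.74 ± 0.51 in the 6 knockdown libraries, a difference of -1.75 (exact permutation p = 0.0119, adjusted over 4 pairs 0.0476). In all 6 knockdown libraries this ratio of plakoglobin to desmoplakin transcripts was below that of every control library. PKP2 to PKP3 went from -0.07 ± 0.17 to 0.98 ± 0.59, a difference of 1.06 (exact permutation p = 0.0357, adjusted 0.0476), again with no overlap between the arms. By hairpin, this log2 ratio was 1.13 to 1.75 with hairpin #1 and 0.22 to 1.03 with hairpin #3. Of the summed CPM per kb of the 3 plakophilin genes, PKP2 took 33.8% ± 2.72 in control, 59.0% ± 5.17 with hairpin #1 and 44.0% ± 7.36 with hairpin #3. PERP to DSP differed by -0.18 (exact permutation p = 0.298, adjusted 0.298), a difference within the spread of the libraries. The ratio of DSC2 to DSC3 differed by -1.67 (exact permutation p = 0.0238, adjusted 0.0476) but rests on the 13 DSC3 reads described above and on the prior count of 2. The other 3 planned pairs held DSG3 or PKP1 and were not computed. The adjusted p-values of the 3 pairs that passed rose above 0.05, to at most 0.107, when any 1 control library or hairpin #3 library A or B was left out, and for DSC2 to DSC3 also without hairpin #3 library C.

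Reads carried no strand, so a gene and its antisense partner cannot be told apart. The overlapping genes DSCAS (DSC2), DSG2-AS1 (DSG2) and AC087588.2 (PKP2) had 7, 22 and 11 counts summed over the control libraries, against 2108, 14930 and 11589 for the components they overlap.

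Other genes of the junction and of its filament system were read from fixed lists, over both hairpins against control. Among 6 plakins, the relatives of desmoplakin, 3 fell, 0 rose and 3 were not called (median log2 fold change -0.80). The log2 fold changes were -4.58 for EPPK1 (epiplakin; SE 0.200), -2.83 for PPL (periplakin; SE 0.205) and -1.12 for EVPL (envoplakin; SE 0.115). Of the keratins, the filaments that desmoplakin binds, 5 of 7 were tested and 3 fell (median -1.18). KRT8 and KRT18, the keratin partners of simple epithelia, had log2 fold changes of -1.18 (SE 0.0904) and -1.41 (SE 0.0957), and KRT19 of -3.82 (SE 0.209). Of 8 desmosomal relatives, 5 were tested, 2 were called lower and 0 higher (median -0.52). By the adjusted p-value alone PKP4 and ARVCF were also lower (-0.38 and -0.52) and CTNNB1 was higher (0.29, edgeR adjusted p = 0.0258). CTNND1, which encodes p120-catenin, fell by 1.13 (SE 0.106), and CTNND2 was at 4.197 CPM in control, 0.0508 CPM with hairpin #1 and 0 in all hairpin #3 libraries. Of 7 hemidesmosome genes, whose products anchor keratin to the basement membrane, 5 fell and 0 rose (median -1.69). ITGB4 had a log2 fold change of -3.89 (SE 0.168), LAMA3 of -3.68 (SE 0.0912) and COL17A1 of -1.90 (SE 0.417).

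Of 5 classical cadherins, the adherens junction counterparts of the desmosomal ones, 4 were tested, 2 fell and 2 rose (median -1.64). CDH1 (E-cadherin) went from 275 CPM in control to 0.112 and 0.148 CPM with hairpins #1 and #3, and CDH3 (P-cadherin) from 197 CPM to 4.11 and 2.66 CPM. Of those that rose, CDH2 (N-cadherin) went from 22.5 CPM in control to 156 and 111 CPM, higher by 2.57 on the log2 scale (SE 0.177, edgeR adjusted p = 4.77e-07), and CDH5 (VE-cadherin) from 0.097 CPM to 2.29 and 3.70 CPM. Set beside these, DSG2 and DSC2 kept 69.8% and 79.2% of their control level with hairpin #1 and 51.9% and 50.7% with hairpin #3. Of 4 PERP relatives of the PMP22 family, 2 were called higher and 0 lower (median 0.71), PMP22 by 2.22 (SE 0.334) and EMP3 by 1.33 (SE 0.139) on the log2 scale. EMP2 was lower by the adjusted p-value alone, with a log2 fold change of -0.97 (edgeR adjusted p = 0.000167). It was called lower with hairpin #3 alone (-1.02). Of 8 p53 targets other than PERP, 1 was called lower, GDF15 with a log2 fold change of -1.19, and 0 higher (median -0.29), where 7.4% of all tested genes were called lower. By the adjusted p-value alone CDKN1A and FAS were lower as well and ZMAT3 was higher. Of 11 regulators of desmosome assembly, adhesion or shedding, 1 rose and 0 fell (median -0.07), near the 7.26% of all tested genes that were called higher. It was PRKCA, a protein kinase C isoform, which rose by 1.72 on the log2 scale (SE 0.104, edgeR adjusted p = 1.57e-07). Without the fold threshold ADAM10, ATP2C1 and ZDHHC5 were lower (-0.38, -0.32 and -0.50), and no regulator besides PRKCA was higher. RIPK4 was called lower with hairpin #3 than with hairpin #1 (-1.14, edgeR adjusted p = 0.0142).

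Among 5 transcriptional repressors of junction genes, 4 rose and 0 fell (median 3.11). ZEB2, ZEB1 and SNAI1, whose products bind E-boxes, rose by 3.48 (SE 0.156), 3.40 (SE 0.134) and 3.11 (SE 0.331) on the log2 scale. Among 8 activators of junction genes, 7 were tested, 6 fell and 0 rose (median -4.60). GRHL2, a grainyhead factor, was at 112 CPM in control, had no count with hairpin #1 and was at 0.249 CPM with hairpin #3. OVOL2 went from 17.9 CPM to 0.11 and 0.283 CPM, and OVOL1 from 13.1 CPM to 0.0169 CPM and 0. The part of these factors in the desmosome changes was not tested.

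**Figure D5:**
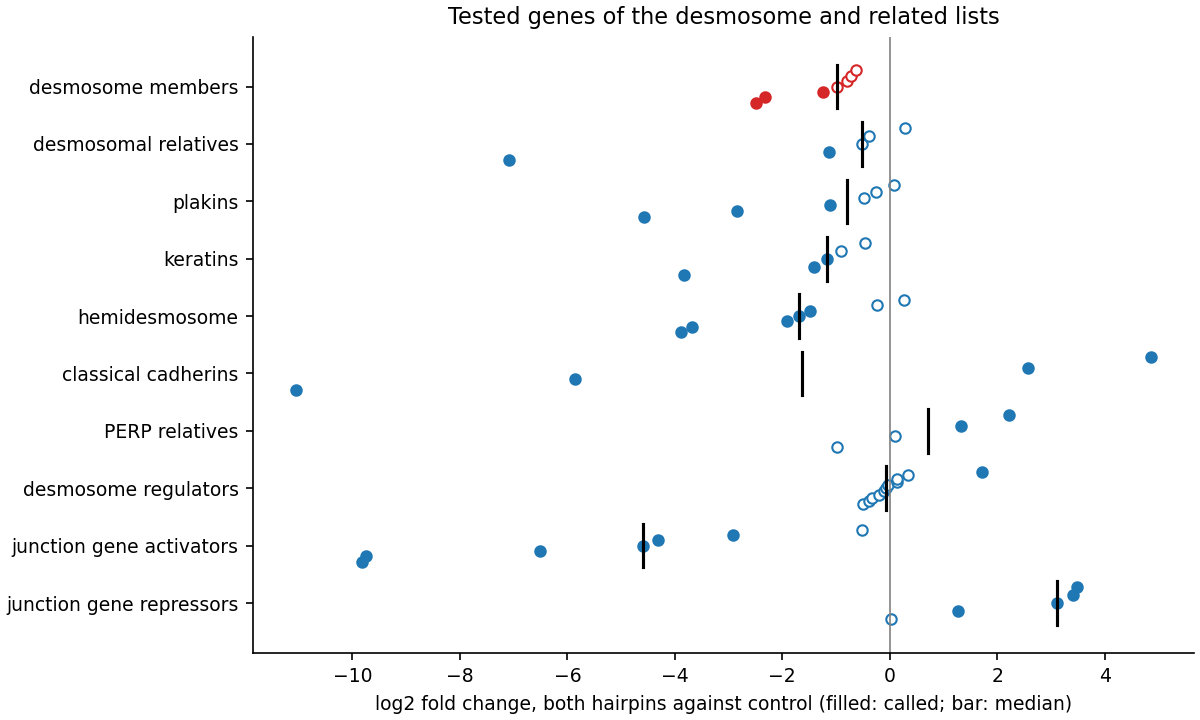
Log2 fold change of each tested gene of the desmosome and of related lists over both hairpins against control, filled where called, with the list's median as a bar. Fitted values beyond about -6 or for genes with almost no counts in 1 arm depend on the prior count. The desmosome median is -0.97, against -4.60 for activators and 3.11 for repressors of junction genes.

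Markers of other cells were read as well. Of 6 fibroblast markers, 3 were tested and all 3 rose, PDGFRB by 4.78 (SE 0.384) on the log2 scale, and the summed level of the 6 was 1.94 to 2.53 CPM in control, 14.0 to 28.1 CPM with hairpin #1 and 16.9 to 23.5 CPM with hairpin #3, with DCN at 0 in all libraries. Of 3 mesothelial markers, 2 were tested and 1, UPK3B, fell by 6.49 on the log2 scale. The other, LRRN4, was at 10.4 CPM in control and 17.4 and 25.1 CPM with hairpins #1 and #3, with a log2 fold change of 1.02 (edgeR adjusted p = 0.0912), and it was called higher with hairpin #3 alone (1.26, edgeR adjusted p = 0.0377). Summed mesothelial marker levels were 55.0 to 76.0 CPM in control, 10.5 to 31.9 CPM with hairpin #1 and 19.9 to 36.97 CPM with hairpin #3. No gene of the endothelial or leukocyte list was called, with sums of at most 1.75 and 1.31 CPM, but CDH5, given above among the classical cadherins and known as an endothelial gene, was called higher. Of 5 keratinocyte markers, 2 were tested and 1, IVL, had no count in knockdown, at least 24.7-fold lower, with KRT1 and LOR at 0 throughout and sums of 29.3 to 36.9 CPM that were mostly KRT10. Their part in the desmosome changes was not tested.

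Genes with the most similar profile were sought for each tested component among 9670 tested genes at 10 CPM or more in control, as the smallest root mean square difference of log2 CPM over the 9 libraries after centring on control. PERP had the closest match, IL17D at 0.06, with ARHGEF3 next at 0.13. DSG2 and DSP shared SMIM3 among their nearest (0.09 for both), beside SLC22A5 at 0.09 for DSG2 and CTDSPL at 0.11 for DSP. COG5 was near DSC2 (0.11), RTKN2 and LRRC8B were nearest to PKP2 (0.13 and 0.15), and ARHGEF16 and MYH14 to PKP3 (0.13 and 0.19). The matches of JUP were the most distant, PLAT and NEDD9 at 0.27 each. Desmosome components were left out of the search. IL17D, at 10.8 CPM in control, was close to the lower limit of the search. These distances are the smallest among 9670 genes over 9 libraries, and whether they are smaller than unrelated genes would give was not tested.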

How the data were processed

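RNA of OVCA433 cells was sequenced in 9 libraries, 3 per group. Per the labels, libraries were poly(A)-selected and non-directional, and the submitters' processing notes name HISAT2 2.0.5, featureCounts 1.5.0-p3 and hg38. The annotation release and counting options are not given in the sources used here. The authors deposited unnormalized counts of reads for each gene, with a gene length in bases in the same table.

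Genes were filtered with filterByExpr (minimum count 10, minimum total 15), which left 15975 genes holding 99.9% of the counts, and scaled with TMM. Tests used edgeR 4.0.16 (glmQLFit, glmQLFTest) under R 4.3.3, and p-values were adjusted by Benjamini-Hochberg across all tested genes. Both hairpins formed 1 arm of 6 against 3 control libraries, and each hairpin was also compared in a model with 3 groups. The script was tested on simulated data. DESeq2 1.42.0, other filters and scalings, a replicate block and leaving out each library were alternatives. SE is the fold change over the root of its F statistic. Intervals and floors (3 counts per library) cover counting error and the spread between these libraries only.

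The components, gene lists and tests were chosen with earlier results of these data known. Besides the components, MPZL3 and the cadherin cluster, the text names up to 3 called genes per list with the largest fitted fold change and the 2 nearest profiles per component, of which 1 is not reported here. Markers at 0, CDH2, LRRN4, SOX17, MSLN, EMP2, CDKN1A, FAS, ZMAT3, PKP4, ARVCF, CTNNB1, ADAM10, ATP2C1, ZDHHC5 and RIPK4 are outside this rule and were named after their values were seen.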

Additional observations from a re-analysis of the deposited data

Results flagged for a closer look

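For 5 components the effects of the hairpins differed by the direct edgeR test of hairpin #3 against hairpin #1 without a fold threshold. The log2 difference, hairpin #3 minus hairpin #1, was -0.65 for DSC2 (edgeR adjusted p = 0.00851), -0.43 for DSG2 (0.0409), -0.71 for JUP (0.0219), -0.41 for PERP (0.0177) and 0.38 for PKP3 (0.0139). DSC2 and PKP3 lost the threshold in 1 fit, without hairpin #3 library B (edgeR adjusted p = 0.053 and 0.0641). PERP lost it without hairpin #3 library B or C (0.0546 and 0.0747). JUP lost it without hairpin #1 library B or C or hairpin #3 library A or B (adjusted p from 0.0564 to 0.0895). DSG2 lost it without control library B or C, hairpin #1 library A or B, or hairpin #3 library B or C (0.0507 to 0.174), and also with library totals in place of TMM (0.0632) or with only the libraries of both hairpins in the fit (0.0595). The sign was kept in each of these fits. No component had a library that stood apart within the knockdown arm of 6 by Dixon's criterion, and groups of 3 were not examined for this. Since the arm joined both hairpins, a library apart from its own group could lie within the range of the other and be missed. PKP2 in hairpin #3 library A, at 90.2 CPM beside 58.5 and 52.3, lay within the hairpin #1 range of 79.8 to 107 CPM.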

How the results depend on the processing

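No component changed sign in any comparison under any alternative. With no fold threshold the components called were 7, 6, 7 and 5 for both hairpins, hairpin #1, hairpin #3 and hairpin #3 against hairpin #1, in place of 3, 3, 4 and 0. With the 2-fold threshold inside the test they were 2, 2, 3 and 0. PKP2 was the component lost for both hairpins (edgeR adjusted p = 0.358) and for hairpin #1, and PERP was lost for hairpin #3 (0.101). With no filter on low counts the calls were 3, 3, 5 and 0. The added call was DSC3, which was higher with hairpin #3, on 10 reads against none in control. Leaving out 1 library gave 3 to 4, 2 to 3, 4 to 7 and 0 to 0, the 7 coming without hairpin #3 library A. The ratios with 1 library left out ranged from -1.91 to -1.496 for DSC2 to DSC3, 0.90 to 1.21 for PKP2 to PKP3, -1.95 to -1.58 for JUP to DSP and -0.36 to -0.04 for PERP to DSP, and with a prior count of 0.5 DSC2 to DSC3 was -2.82. The smaller number of splits then limits these p-values.

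Letters A, B and C were shared by the groups. Deviations from the group means of libraries with the same letter correlated at 0.04 to 0.36 over 9 pairs, not all above 0.1, and those of different letters at -0.32 to 0.13, so the letters were not treated as pairing the libraries. Pairs of A libraries were the highest, at 0.32, 0.31 and 0.36, and A against B or C was below 0 throughout. A difference shared by the A libraries therefore stays in the spread of the fits without a block. With the replicate block, 3, 3, 4 and 0 components were called, as without it, and over all genes 2306, 2675, 2515 and 754 were called in place of 2342, 2605, 2443 and 628. Without a fold threshold the block moved DSC2 over both hairpins to an edgeR adjusted p of 0.0523 and DSC2 with hairpin #1 to 0.0247. For hairpin #3 against hairpin #1 it moved DSP to 0.00447 and PKP2 to 0.0016. All 7 components then passed in that comparison. The share of all tested genes passing in this way with the block is not given here, so this count has no background beside it. PKP2 also passed between the hairpins with no filter on low counts (0.00266), and DSC2 passed for hairpin #1 against control when only those 2 groups were fitted (0.0454). Without hairpin #3 library A, PKP2 and DSP passed in the comparison of the hairpins (0.00342 and 0.0411), and DSC2 passed with hairpin #1 (0.0288). Library A was the highest of its group in all 3 groups for 3 components (DSG2, DSP, PKP2) and the lowest for 2 (JUP, PKP3). The share of all tested genes with either order is not given here, so these counts are not read as particular to the components.

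With 3 libraries per group from 1 line, p-values describe the spread between these cultures. Genes at 4 counts or fewer could not be compared.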
